A study of Mus musculus with 6 samples.

Results

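*H19*, *Meg3*, *Dlk1*, *Mest*, *Plagl1*, *Peg3*, *Grb10*, *Ndn* and *Sgce* are imprinted genes, and their RNA was compared here between slow-cycling and faster-cycling chondrocytes of the mouse growth plate. The 9 genes were chosen by name as members of the imprinted growth network, with earlier results of these data known. They are among 23159 genes in the deposited count table, and all 9 passed the filter on low counts. Imprinted genes are transcribed mainly from the allele of one parent. Many of those transcribed from the paternal allele promote fetal and early postnatal growth, and several transcribed from the maternal allele restrain it. Members of the network are often expressed together in growing tissues, and their expression declines in many organs as body growth slows after birth. *H19*, *Meg3* and *Grb10* are known for expression from the maternal allele in most tissues, and *Dlk1*, *Mest*, *Peg3*, *Plagl1*, *Ndn* and *Sgce* for expression from the paternal allele. Alleles were not told apart in these counts, so the parental origin of the RNA was not measured.

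Label-retaining chondrocytes (LRCs) keep a nuclear histone label that dividing cells dilute, and the comparison asks which transcripts set them apart from non-LRCs, which have lost part of it. RNA of sorted cells was sequenced in 6 libraries, 1 of LRCs and 1 of non-LRCs in each of 3 independent experiments, and each experiment pooled cells of several littermates. All mice, in both groups, were homozygous for each of these: a Col2a1-tTA transgene at *Peli2*, a TRE-H2B-GFP cassette at *Col1a1*, a Col2a1-creER transgene and the R26R tdTomato reporter. All mice were also given doxycycline from postnatal day 21 to 49, which shuts off H2B-GFP transcription, and tamoxifen on days 46 and 47, and were 49 days old at analysis. LRCs were the H2B-GFP(high) and non-LRCs the H2B-GFP(mid-low) tdTomato+ cells of the distal femoral and proximal tibial growth plates, with about 10000 and 50000 cells per library. Both the transactivator and the creER were driven by *Col2a1* sequences, so both groups are limited to cells in which these transgenes were active. In bulk samples such as these, fewer cells of a type and less RNA per cell cannot be told apart.

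Libraries held between 18943789 and 129559872 counts, the fewest of them in LRCs of experiment 2. In that library 1 count was worth 0.0478 CPM (counts per 1000000 counts) and 1731 of the 13728 genes tested were at 0, against 4 to 365 in the others. Chondrocyte markers were abundant in both groups, and the summed level of 11 of them was 88670 to 234400 CPM in LRCs versus 145200 to 249400 CPM in non-LRCs. The 8 resting zone markers summed to 2125 to 2393 CPM in LRCs versus 765 to 1189 CPM in non-LRCs, and 4 of the 8 rose, which here and in the following means an adjusted p below 0.05 in the edgeR test of the groups, beside 0.903% of all genes. They were *Pthlh*, *Gas1*, *Spon1* and *Wif1*. Of the rest, which did not pass the test, *Sfrp5* and *Grem1* had fitted levels higher in LRCs. *Ucma* and *Foxa2* had lower ones, with log2 fold changes of -0.51 and -0.90, and the *Ucma* values of the groups did not overlap. The study chose *Gas1*, *Spon1* and *Wif1* as markers on these same libraries, so the direction of these genes and their share of the sum are no independent check of the label. The 11 markers of superficial articular or synovial cells summed to 1365 to 2508 CPM in LRCs versus 282 to 455 CPM in non-LRCs, and 4 of the 10 tested rose. Of 12 fibroblast or perichondrium markers, which summed to 3430 to 4973 CPM in LRCs versus 2590 to 3118 CPM in non-LRCs, 1 of the 10 tested rose. Osteoblast markers summed to 273 to 619 CPM in LRCs versus 602 to 1686 CPM in non-LRCs, and hypertrophic chondrocyte markers to 999 to 2148 CPM and 1143 to 3141 CPM, with 1 of 8 tested falling in each list. The part of these cell types in the levels of the imprinted genes was not tested. Of the superficial markers, *Prg4* was also detected by the study in resting chondrocytes, at a low level. The endothelial genes *Cdh5*, *Kdr* and *Emcn*, the muscle genes *Myh2*, *Pax7* and *Myog* and the adipocyte gene *Adipoq* had 0 counts in all 6 libraries, while other genes of these lists were detected. Muscle markers summed to 12.6 to 43.5 CPM over the 6 libraries, with *Tnni2* and *Tnnt3* the highest, leukocyte or erythroid markers to 8.17 to 27.8 CPM, with *Cd68* the highest, and adipocyte markers, *Lpl* among them, to 6.14 to 14.3 CPM. Endothelial or mural markers summed to 455 to 1369 CPM, nearly all of it *Cspg4*, which chondrocytes also express.

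*H19*, *Meg3* and *Mest* each hold microRNA genes, and the mature sequences are shown as further products of these loci besides the host RNA. RefSeq places 7 mature microRNAs of 4 genes within these 3 hosts on the host's strand, with 7 distinct seeds. One pair is given for each host, with the seed, bases 2 to 8, in capitals. The miR-675 pair lies in *H19* at chr7:142577112-142577133 (5p) and chr7:142577078-142577099 (3p), minus strand, the miR-770 pair in *Meg3* at chr12:109563710-109563731 and chr12:109563744-109563765, plus strand, and the miR-335 pair in *Mest* at chr6:30741314-30741336 and chr6:30741354-30741375, plus strand, all on GRCm38.p6.
miR-675-5p: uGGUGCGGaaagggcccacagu
miR-675-3p: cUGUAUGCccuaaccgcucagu
miR-770-5p: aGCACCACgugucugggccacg
miR-770-3p: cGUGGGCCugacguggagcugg
miR-335-5p: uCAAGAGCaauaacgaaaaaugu
miR-335-3p: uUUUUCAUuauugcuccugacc
The rows of these microRNA genes, and of the gene of miR-1906 in *Meg3*, held 0 counts in all 6 libraries, and 3 counts would have been 0.143 CPM in the smallest library. These microRNAs were thus not measured, and the values given for *H19*, *Meg3* and *Mest* are those of the host genes.

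Start site windows, from 250 bases before to 50 bases after a RefSeq start, were given for 7 of the 9 genes. The windows of *Meg3* (chr12:109540746-109541045, plus strand) and *Mest* (chr6:30737800-30738099, plus strand) are printed because the fitted changes of these genes were of opposite sign and they are compared as a ratio. In the *Meg3* window, capitals mark TATAAA, found here on both strands as overlapping matches.
Meg3: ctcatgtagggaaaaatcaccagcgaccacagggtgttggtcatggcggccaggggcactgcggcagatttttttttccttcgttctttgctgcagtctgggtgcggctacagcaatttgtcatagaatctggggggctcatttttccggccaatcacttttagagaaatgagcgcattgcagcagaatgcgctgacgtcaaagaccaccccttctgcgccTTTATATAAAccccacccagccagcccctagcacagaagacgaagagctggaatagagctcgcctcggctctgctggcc
Mest: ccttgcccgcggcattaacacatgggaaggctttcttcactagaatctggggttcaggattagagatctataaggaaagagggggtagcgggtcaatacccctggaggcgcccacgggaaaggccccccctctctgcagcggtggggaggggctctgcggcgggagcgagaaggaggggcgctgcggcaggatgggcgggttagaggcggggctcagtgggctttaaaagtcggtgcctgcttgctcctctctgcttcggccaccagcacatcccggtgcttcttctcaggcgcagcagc
The *Meg3* window held 13 CG pairs and the *Mest* window 17, against a median of 7 over all 32851 windows. More CG pairs than these were in 36.3% and 29.7% of all windows. Another window of *Meg3* held 1 CG pair and another of *Mest* held 8. TATAAA on either strand was in 13.6% of all windows, and among the 11 windows of the 7 genes in the printed *Meg3* one alone. The upstream window of *Grb10* (chr11:12037371-12037670, minus strand) had 45 CG pairs, and 1.65% of windows had more. GGGGCCCC, searched on both strands as the core of the site known for PLAGL1, was in the *Peg3* window (chr7:6730370-6730669, minus strand) and in 1.08% of all windows. These matches describe the letters of the windows and were not related to the counts. *H19* and *Sgce* had no window.

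Between the groups, *Mest* fell in LRCs 3.02-fold and was the 1 gene of the 9 that passed the test. The noncoding RNAs *Meg3* and *H19* had fitted levels 2.63-fold and 2.31-fold higher in LRCs and were higher in LRCs in all 3 experiments, and neither passed the test. *Grb10* was lower in LRCs in all 3 experiments with a fitted fold of 1.72 and an adjusted p just above the threshold. *Ndn*, *Sgce* and *Peg3* had fitted log2 fold changes between -0.16 and 0.21, with intervals that included 0. A call here is a Benjamini-Hochberg adjusted p below 0.05 in edgeR's quasi-likelihood test over 13728 genes, with the experiment as a block. By this rule 0 of the 9 genes rose and 1 fell, beside 176 called genes in all, which is 1.28% of those tested (0.903% higher and 0.379% lower). At an unadjusted p below 0.05, 2 of the 9 were higher and 3 lower in LRCs, beside 8.89% and 9.53% of all genes. The CPM values of the groups did not overlap for 3 genes with LRCs higher and 2 with non-LRCs higher, beside 8.41% and 10.3% of all genes. In all 3 experiments 4 of the 9 were higher and 3 lower in LRCs. A shared direction in all 3 experiments was common, at 46.9% of all genes tested. The median fitted log2 fold change of the 9 was 0.10 and its median size 0.78, against -0.10 and 0.45 over all genes tested. The 9 were chosen with earlier results of these data known, so these shares and medians are a description only.

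**Figure D1:**
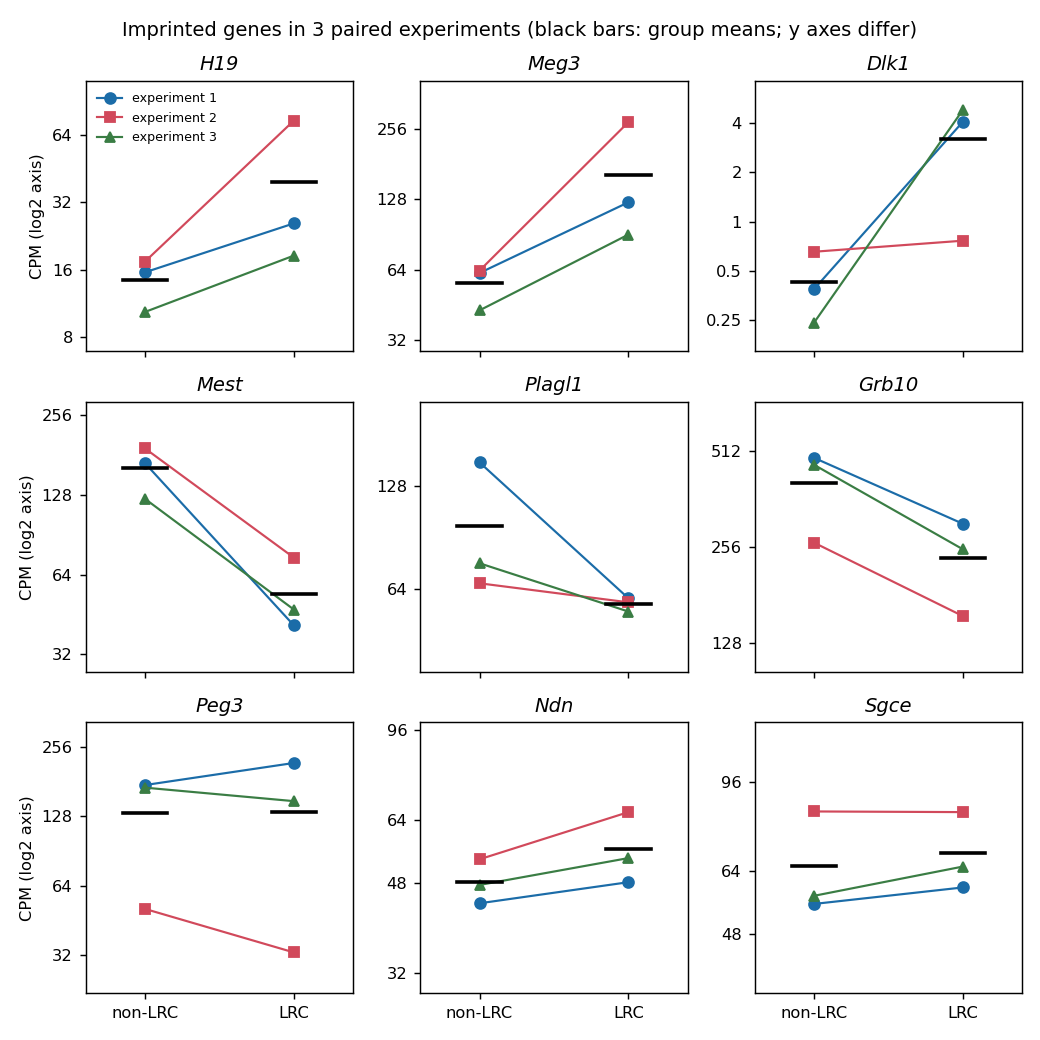
TMM-normalized CPM (log2 axis, with a range of its own in each panel) of each of the 9 genes in non-LRC and LRC libraries, with lines joining the libraries of 1 experiment and black bars at the group means (n = 3). *H19*, *Meg3*, *Dlk1* and *Ndn* are above and *Mest*, *Plagl1* and *Grb10* below their non-LRC partner in all 3 experiments. *Peg3* is low in both libraries of experiment 2.

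*H19*, a maternally expressed noncoding RNA next to *Igf2* and the host of miR-675, spans chr7:142575529-142578143 on the minus strand (GRCm38), and 3.41% of its exon bases are shared with *Mir675*. Its levels in experiments 1, 2 and 3 were 25.8, 73.9 and 18.5 CPM in LRCs versus 15.6, 17.4 and 10.4 CPM in non-LRCs. Every LRC library was above every non-LRC library, by a narrow margin between LRCs of experiment 3 and non-LRCs of experiment 2, and the LRC library of experiment 2 stood far above the rest. The group means were 39.4 ± 30.1 CPM in LRCs versus 14.5 ± 3.65 CPM in non-LRCs (s.d., n = 3). The fitted log2 fold change was 1.21 ± 0.32 (SE), with a 95% interval of 0.42 to 2.00 and an adjusted p of 0.132 in edgeR's quasi-likelihood test. Without experiment 2 it was 0.78, with an adjusted p of 0.0743 in the same edgeR fit. DESeq2 and limma-voom called the gene, with adjusted p of 0.0079 and 0.0226, and over the 11 alternatives the adjusted p lay between 0.0079 and 0.449.

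*Meg3*, a maternally expressed noncoding RNA downstream of *Dlk1*, spans chr12:109541001-109571726 on the plus strand, and 6.79% of its exon bases overlap *Gm26906* on the opposite strand. It was the more abundant of the noncoding RNAs in CPM, and the LRC libraries held 125, 274 and 90.6 CPM. The non-LRC libraries held 62.0, 63.5 and 42.9 CPM. The groups did not overlap, and the library with the highest *Meg3* was again the LRC library of experiment 2. Within experiments the difference in log2 CPM was 1.005, 2.11 and 1.08. The fitted log2 fold change was 1.395 ± 0.25 (SE), with a 95% interval of 0.78 to 2.01 and an adjusted p of 0.0657 by edgeR's quasi-likelihood test. The call depended on the fit, since 6 of the 11 alternatives called *Meg3*. The adjusted p of the edgeR fit was 0.0198 without experiment 2, where the log2 fold change was 1.04, and 0.0137 without experiment 3, where it was 1.58. It was 1e-05 with DESeq2, and across the alternatives it reached 0.303.

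*Dlk1*, a transmembrane ligand related to the Notch ligands and the paternally expressed partner of *Meg3*, spans chr12:109452823-109463336 on the plus strand. It was the scarcest of the 9, with 476, 16 and 207 counts in LRCs versus 40, 25 and 12 in non-LRCs. These counts gave 4.08, 0.765 and 4.82 CPM in LRCs versus 0.387, 0.655 and 0.242 CPM in non-LRCs. The LRC libraries of experiments 1 and 3 stood far above the other libraries, and in experiment 2 the groups were close, with a difference in log2 CPM of 0.21 against 3.29 and 4.15. Means were 3.22 ± 2.16 CPM in LRCs versus 0.428 ± 0.210 CPM in non-LRCs (s.d., n = 3). The fitted log2 fold change, the largest in size of the 9, was 2.76 ± 1.17 (SE), its 95% interval of -0.10 to 5.61 included 0, and the adjusted p was 0.284 in edgeR's quasi-likelihood test. Without experiment 2 the log2 fold change was 3.81 and the edgeR adjusted p 0.0159. It was 2.26 without experiment 1 and 1.85 without experiment 3, with edgeR adjusted p of 0.742 and 0.833. DESeq2 and limma-voom gave adjusted p of 0.0413 and 0.0481, and over the 11 alternatives the adjusted p lay between 0.0159 and 0.833. *Prg4*, a lubricant protein of the articular surface and a marker of superficial cells, was also lowest in experiment 2 among LRCs, with 1017, 110 and 869 CPM, against 3.22 to 29.5 CPM in non-LRCs. The other markers of its list were mixed. *Creb5*, *Thbs4*, *Vit* and *Sned1* were also lowest there among LRCs, and *Cd248* and *Thy1* had 0 counts. *Clu*, *Gdf5* and *Erg* were instead highest there among LRCs, *Clu* with 974.5, 982 and 931 CPM, and *Tspan15* was in between. By in situ hybridization the study also detected *Prg4* RNA in resting chondrocytes, more faintly than at the articular surface. *Prg4* is thus not specific to superficial cells. The study also reports that nearly all tdTomato+ cells freed by its digestion were growth plate chondrocytes. That share was given for all tdTomato+ cells and not for LRCs alone. The part of superficial cells in the *Dlk1* values was not tested.

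Because *Dlk1* had the largest fitted change, the genes most like it were looked up by Pearson's r of log2 CPM over the 6 libraries. The 5 highest were *F2r* (r = 0.998), *Cytl1* (r = 0.996), *Dtx3l* (r = 0.981), *Dkk3* (r = 0.970) and *Gjc3* (r = 0.970). *Cytl1*, which encodes a secreted protein of cartilage, had 309, 70.8 and 371 CPM in LRCs versus 30.1, 55.01 and 26.7 CPM in non-LRCs, so that it too was lowest among LRCs in experiment 2. *F2r*, the thrombin receptor, had 10.7, 3.20 and 11.5 CPM in LRCs versus 2.197, 2.78 and 1.39 CPM in non-LRCs. The points are 6 libraries of 2 groups that share experiments and depth, and the genes were picked as the highest of all tested. Without the 2 libraries farthest from the median of *Dlk1*, r was 0.984, 0.962 and 0.961 for *F2r*, *Cytl1* and *Dtx3l*, and 0.669 and 0.651 for *Dkk3* and *Gjc3*.

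*Mest*, a paternally expressed gene for an enzyme of the alpha/beta hydrolase fold, spans chr6:30723547-30748465 on the plus strand. Its levels were 41.1, 74.1 and 47.2 CPM in LRCs versus 168, 191 and 123 CPM in non-LRCs. Every non-LRC library was well above every LRC library, and experiment 2 had the highest level within each group. The means were 54.2 ± 17.5 CPM in LRCs versus 161 ± 34.4 CPM in non-LRCs (s.d., n = 3). Within experiments *Mest* differed by -2.03, -1.37 and -1.38 in log2 CPM. The fitted log2 fold change was -1.59 ± 0.19 (SE) with a 95% interval of -2.06 to -1.13, and *Mest* ranked 66 among all genes by p, with an adjusted p of 0.0311 in edgeR's quasi-likelihood test. The call was lost without experiment 1, with a log2 fold change of -1.38 and an edgeR adjusted p of 0.0763, and in the fit without the replicate block, with an adjusted p of 0.169. It held in the other 9 alternatives, and the log2 fold change lay between -1.71 and -1.38 in all 11. Of the 3945 exon bases of *Mest*, 912 (23.1%) overlap *Copg2* on the opposite strand, and the strand setting of the counting is not given in the sources used here. *Copg2*, which encodes a coatomer subunit, had 3.83, 23.8 and 4.70 CPM in LRCs versus 9.65, 11.3 and 4.69 CPM in non-LRCs, a log2 fold change of -0.08 ± 0.52 (SE, edgeR adjusted p = 0.949).

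*Plagl1*, a paternally expressed zinc finger transcription factor, spans chr10:13060504-13131694 on the plus strand. Its levels were 60.4, 58.7 and 55.2 CPM in LRCs versus 150, 66.7 and 76.3 CPM in non-LRCs. LRC libraries were nearly alike and all lower, and the non-LRC library of experiment 1 stood well above the other non-LRC libraries. The mean was 58.1 ± 2.62 CPM in LRCs versus 97.6 ± 45.4 CPM in non-LRCs (s.d., n = 3). In the fit the log2 fold change was -0.65 ± 0.24 (SE), with a 95% interval of -1.25 to -0.06 and an adjusted p of 0.237 in edgeR's quasi-likelihood test. Without experiment 1 it was -0.33 with an edgeR adjusted p of 0.674. Of the 11 alternatives, limma-voom called *Plagl1*, with an adjusted p of 0.0402.

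*Peg3*, a paternally expressed zinc finger protein, spans chr7:6703892-6730431 on the minus strand. Its levels were 219, 32.8 and 149 CPM in LRCs versus 175, 50.7 and 171 CPM in non-LRCs. The groups overlapped, and both libraries of experiment 2 were far below those of experiments 1 and 3. The means of 134 ± 93.9 and 132 ± 70.7 CPM (s.d., n = 3) were nearly equal. Its fitted log2 fold change was -0.16 ± 0.21 (SE), with a 95% interval of -0.67 to 0.34 and an adjusted p of 0.721 in edgeR's quasi-likelihood test. Its sign turned without experiment 2, to 0.06, and in the fit without the replicate block.

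*Grb10*, an adaptor protein that binds the insulin and IGF1 receptors and restrains their signalling, spans chr11:11930508-12038683 on the minus strand. Its levels were 302, 155 and 251 CPM in LRCs versus 487, 263 and 463 CPM in non-LRCs. The groups overlapped across experiments, since non-LRCs of experiment 2 were below LRCs of experiment 1, but within each experiment LRCs were lower by a like amount. The differences in log2 CPM were -0.69, -0.77 and -0.88, with an s.d. of 0.0970. In the fit *Grb10* had a log2 fold change of -0.78 ± 0.14 (SE), with a 95% interval of -1.11 to -0.45 and an adjusted p of 0.0612 in edgeR's quasi-likelihood test. Without experiment 2 the edgeR adjusted p was 0.0392, and 4 of the 11 alternatives called *Grb10*, DESeq2 with an adjusted p of 1.24e-05. Over all alternatives it reached 0.529.

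*Ndn*, a paternally expressed member of the MAGE family, spans chr7:62346569-62350262 on the plus strand. Its levels were 48.3, 66.3 and 53.8 CPM in LRCs versus 43.9, 53.5 and 47.7 CPM in non-LRCs. LRCs were above non-LRCs within each experiment, the groups overlapped, and the 6 libraries spanned 1.51-fold, the narrowest range of the 9. *Ndn* had a fitted log2 fold change of 0.21 ± 0.16 (SE), with a 95% interval of -0.18 to 0.59 and an adjusted p of 0.539 in edgeR's quasi-likelihood test. *Sgce*, paternally expressed epsilon-sarcoglycan of the dystrophin-associated complex, spans chr6:4674350-4747207 on the minus strand. Its levels were 59.4, 83.7 and 65.3 CPM in LRCs versus 55.1, 83.9 and 57.2 CPM in non-LRCs. Experiment 2 was highest in both groups, and the groups overlapped. *Sgce* had a fitted log2 fold change of 0.10 ± 0.15 (SE), with a 95% interval of -0.26 to 0.46 and an adjusted p of 0.763 in edgeR's quasi-likelihood test. For both genes the interval excludes a change of 1 log2 unit, and a p above the threshold does not show that the groups were equal.

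**Figure D2:**
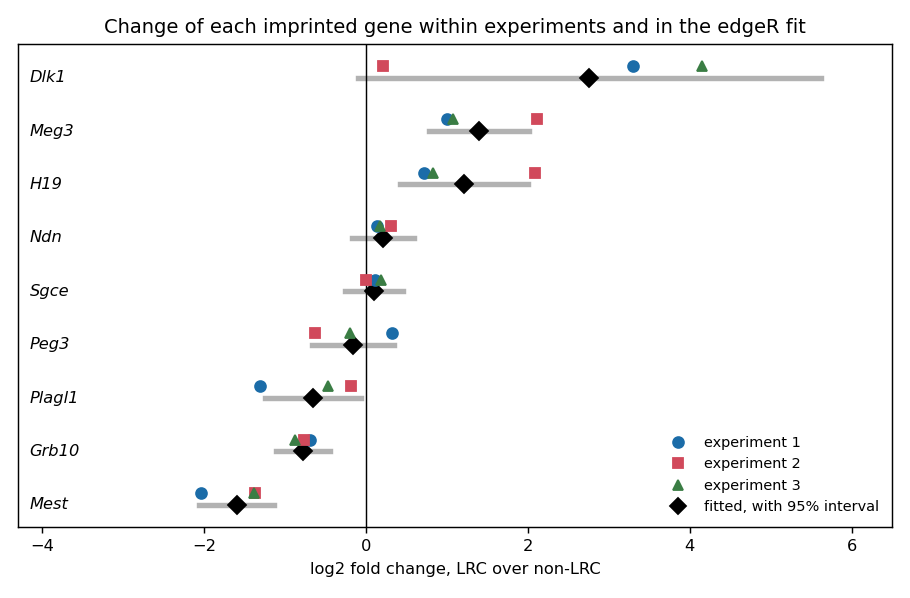
Log2 fold change, LRC over non-LRC, of each of the 9 genes within experiments (coloured symbols, differences in log2 CPM) and in the edgeR fit (black diamonds, with 95% intervals as grey bars). *Dlk1* has the widest interval, -0.10 to 5.61. The differences of *Grb10*, *Mest* and *Plagl1* lie below 0 and those of *Meg3*, *H19*, *Dlk1* and *Ndn* above 0 in every experiment.

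With the settings of the analysis changed, DESeq2 with the block called 5 of the 9 genes, *H19*, *Meg3* and *Dlk1* higher and *Mest* and *Grb10* lower, beside 12.3% of all genes it tested. limma-voom with the block called these and *Plagl1*, beside 9.91% of all genes. Without experiment 2, the edgeR fit called 4 of the 9, *Dlk1*, *Meg3*, *Mest* and *Grb10*, beside 5.37% of all genes. Without experiment 3 it called 2, *Meg3* and *Mest*, beside 1.59%, and without experiment 1 it called 0 of the 9, beside 0.254% of all genes. Without the replicate block it also called 0 of the 9, beside 0.00728% of all genes. In these alternatives the log2 fold change of every gene of the 9 but *Peg3* kept its sign.

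Levels of the genes can be compared with each other after division by length, as RPKM, CPM per kilobase of exon, from TMM-normalized CPM and the union of GENCODE vM21 exons. By these lengths *Grb10* had the highest level in both groups, 26.0 ± 8.22 RPKM in LRCs and 44.5 ± 13.5 RPKM in non-LRCs (s.d., n = 3). *Dlk1* had the lowest, 0.569 ± 0.381 RPKM in LRCs and 0.0756 ± 0.0370 RPKM in non-LRCs. In non-LRCs *Mest* was second with 40.8 ± 8.72 RPKM, within the spread of *Grb10* and apart from *Ndn*, which was next with 13.1 ± 1.32 RPKM. In LRCs *H19* was next to *Grb10* with 16.02 ± 12.3 RPKM, followed by *Ndn* with 15.2 ± 2.49 RPKM. *Mest* came after both of these, with 13.7 ± 4.44 RPKM. The length of *Mest* includes the 912 bases that overlap *Copg2*, where reads may have been left out as ambiguous. The RPKM of *Mest* may thus be too low in both groups. Its place relative to *Grb10*, *H19* and *Ndn* is therefore not settled. *H19* was seventh in non-LRCs, with 5.88 ± 1.48 RPKM, and *Meg3* eighth, with 3.10 ± 0.635 RPKM. In LRCs *Meg3* was sixth, with 9.02 ± 5.41 RPKM, between *Peg3* with 10.03 ± 7.05 RPKM and *Plagl1* with 7.43 ± 0.335 RPKM. In LRCs neighbours in the order differed by less than the larger s.d. of the pair, except for *Sgce* and *Dlk1*. In non-LRCs the steps from *Mest* to *Ndn*, from *H19* to *Meg3* and from *Meg3* to *Dlk1* were larger than that. With the longest transcript as length, the first and last places stayed and the order between them changed, with *Mest* second and *Ndn* sixth in LRCs. The values also depended on the length used. *Grb10* was then at 46.65 RPKM in LRCs and 79.9 RPKM in non-LRCs, *Sgce* at 15.7 and 14.8 RPKM in place of 6.55 and 6.16 RPKM, and *Peg3* at 15.4 and 15.2 RPKM.

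**Figure D3:**
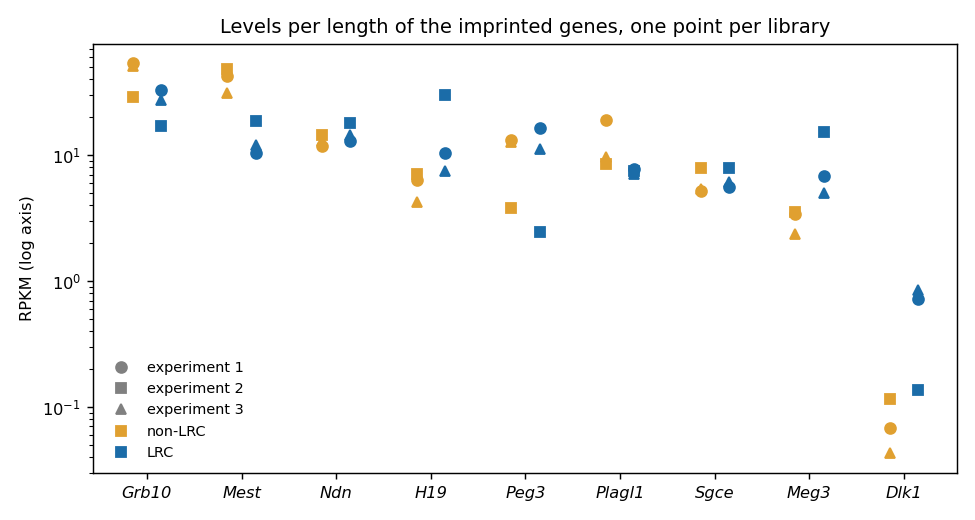
Levels per length (RPKM, log axis) of the 9 genes in each library, ordered from left to right by the sum of the group means, with non-LRCs in orange, LRCs in blue and a symbol for each experiment. By the lengths used, *Grb10* is at the top with group means of 26.0 and 44.5 RPKM and *Dlk1* at the bottom with 0.569 and 0.0756 RPKM. The *Mest* points of the groups do not overlap, and the length of *Mest* includes bases shared with *Copg2*.

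Ratios of raw counts within a library need no scaling between libraries, and those of *Meg3*, *H19* and *Mest* were formed after the values were seen. *Meg3* counts divided by *Mest* counts gave 3.03, 3.71 and 1.92 in LRCs and 0.369, 0.332 and 0.348 in non-LRCs. Hence *Meg3* had more counts than *Mest* in every LRC library and fewer in every non-LRC library. These counts are not divided by length, and the exons of *Meg3* cover 18089 bases against 3945 of *Mest*. Per length, *Mest* was above *Meg3* in every LRC library, with 10.4, 18.8 and 12.0 RPKM versus 6.88, 15.2 and 5.01 RPKM. Within experiments the ratio of *Meg3* to *Mest* counts was 8.21-fold, 11.2-fold and 5.52-fold higher in LRCs. *H19* divided by *Mest* gave 0.626, 0.998 and 0.392 in LRCs and 0.0927, 0.0911 and 0.0842 in non-LRCs. The non-LRC ratios lay close together while the LRC ratios spread widely, with experiment 2 highest. *H19* divided by *Meg3* lay between 0.204 and 0.274 in all 6 libraries, a 1.34-fold range. Over the same libraries *H19* alone spanned 7.12-fold and *Meg3* alone 6.40-fold in CPM.

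**Figure D4:**
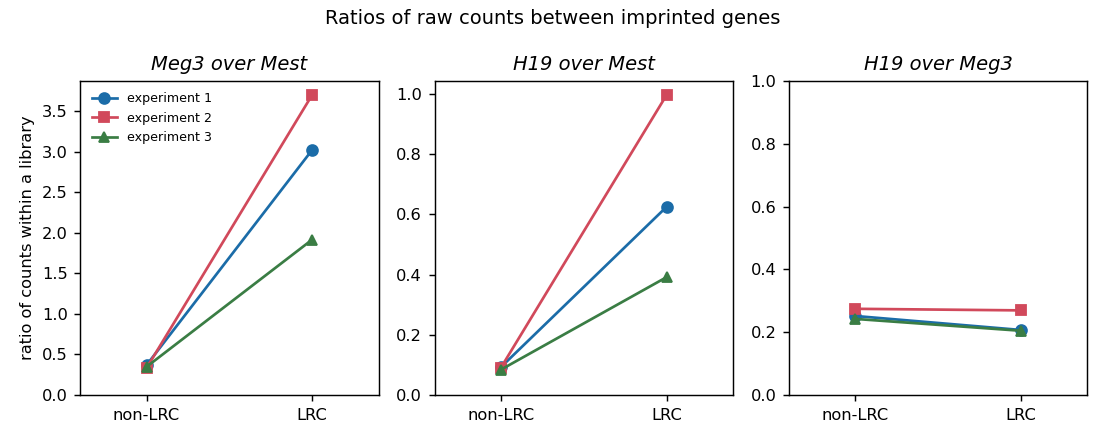
Ratios of raw counts of 2 genes within each library (linear axes from 0, with a range of their own in each panel), with lines joining the libraries of 1 experiment. Counts were not divided by length, so a ratio above 1 does not show a higher level per length. *Meg3* over *Mest* lies between 0.332 and 0.369 in non-LRCs and between 1.92 and 3.71 in LRCs, *H19* over *Mest* is likewise higher in each LRC library, and *H19* over *Meg3* stays between 0.204 and 0.274.

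In the imprinted domains of the 9 genes, 23 of 31 listed neighbours passed the filter and 0 were called in edgeR's quasi-likelihood test, with 4 higher and 2 lower at an unadjusted p below 0.05, beside 8.89% and 9.53% of all genes. The median log2 fold change of the neighbours was 0.34. *Igf2*, the fetal growth factor next to *H19*, had 1256, 452 and 381 counts in LRCs versus 104, 0 and 48 in non-LRCs. These are means of 13.7 ± 6.87 CPM and 0.658 ± 0.570 CPM (s.d., n = 3), with every LRC library above every non-LRC library. *Igf2* had a fitted log2 fold change of 4.58 ± 1.34 (SE) with an adjusted p of 0.155 in edgeR's quasi-likelihood test. Without experiment 2, which held the non-LRC library at 0, the log2 fold change was 3.31 and the edgeR adjusted p 0.00646. The edgeR adjusted p was 0.304 without experiment 1 and 0.0456 without experiment 3, and the adjusted p was 0.0805 with DESeq2 and 0.0301 with limma-voom. *Rian*, a noncoding RNA downstream of *Meg3*, had 3.44, 18.7 and 5.98 CPM in LRCs versus 8.61, 8.77 and 2.72 CPM in non-LRCs, and its groups overlapped. *Meg3* counts were 36.2, 14.7 and 15.1 times those of *Rian* in LRCs and 7.20, 7.24 and 15.8 times in non-LRCs. *Rian* had a fitted log2 fold change of 0.34 ± 0.60 (SE), with an edgeR adjusted p of 0.806, and its sign turned in 3 alternatives. *Peg10*, the neighbour of *Sgce*, had a mean of 0.225 CPM in LRCs versus 0.582 CPM in non-LRCs, and *Usp29*, next to *Peg3*, 0.572 and 0.230 CPM, with overlapping groups in both cases and edgeR adjusted p of 0.604 and 0.761. *Snrpn*, a splicing protein gene in the domain of *Ndn*, had 0 counts in every library, as had *Snurf*, which shares exon bases with it on the same strand.

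Among 45 other genes listed as imprinted, 37 passed the filter, 1 rose and 1 fell in edgeR's quasi-likelihood test. Their median log2 fold change was 0.06. Whether the listed genes are imprinted in chondrocytes was not measured. Together with the neighbours, 1 of 60 was called in each direction, beside 0.903% and 0.379% of all genes. DESeq2 and limma-voom each called 6 of them higher, and 6 and 4 lower, where these fits called 12.3% and 9.91% of all genes in either direction. *Axl*, a receptor tyrosine kinase that binds GAS6, had 122, 68.5 and 78.9 CPM in LRCs versus 23.7, 18.0 and 17.3 CPM in non-LRCs. Its groups lay far apart, and it rose by a log2 fold change of 2.16 ± 0.18 (SE, edgeR adjusted p = 0.0160). *Slc38a4*, an amino acid transporter, had 9.46, 7.07 and 21.5 CPM in LRCs versus 33.6, 35.9 and 67.0 CPM in non-LRCs. It fell in each experiment, with a log2 fold change of -1.93 ± 0.23 (SE, edgeR adjusted p = 0.0311), which was lost without experiment 1. *Cdkn1c*, a maternally expressed inhibitor of the cell cycle, had 254, 255 and 173 CPM in LRCs versus 107, 134 and 218 CPM in non-LRCs. Experiment 3 went against the others, and the log2 fold change was 0.62 ± 0.31 (SE, edgeR adjusted p = 0.360), or 1.10 without experiment 3 (edgeR adjusted p = 0.0379). Without experiment 1 it was 0.29 and without experiment 2 0.46, with edgeR adjusted p of 0.788 and 0.476. *Gnas*, which encodes the stimulatory G protein subunit, had means of 1263 ± 264 and 1142 ± 208 CPM (s.d., n = 3) with a log2 fold change of 0.14 ± 0.15 (SE, edgeR adjusted p = 0.669). *Igf2r*, the receptor that clears IGF2, had 79.9 ± 39.9 and 58.7 ± 16.2 CPM (s.d., n = 3, edgeR adjusted p = 0.370), and *Nnat* stayed below 1 CPM in every library (edgeR adjusted p = 0.966).

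**Figure D5:**
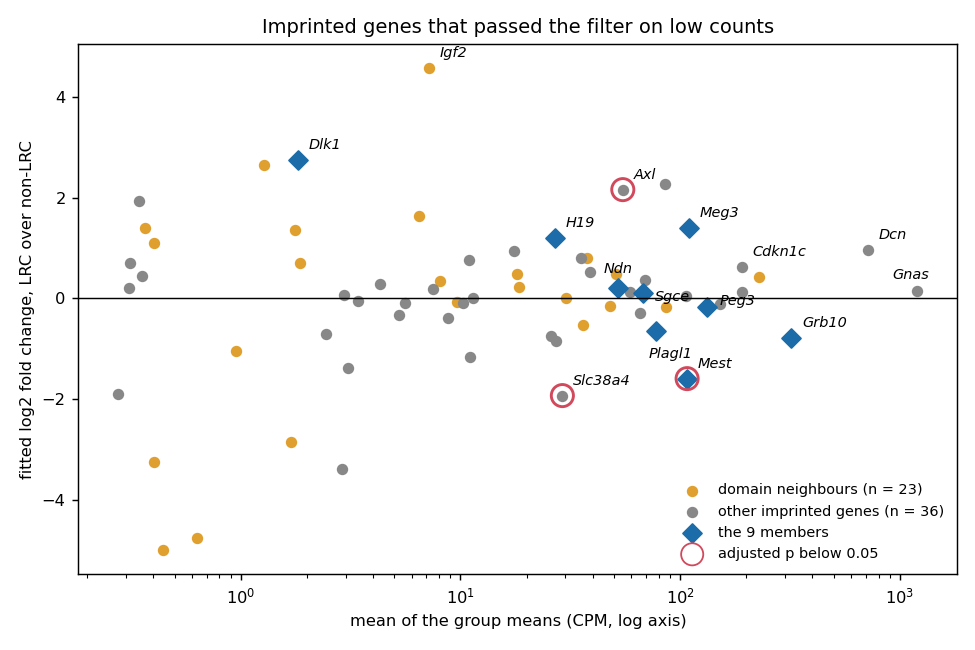
Fitted log2 fold change, LRC over non-LRC, against the mean CPM of both groups (log axis) for the 9 genes (diamonds) and 59 other genes (circles). The circles are the listed domain neighbours and other imprinted genes, with 1 gene left out that had 0 counts in every LRC library. Red rings mark adjusted p below 0.05, which *Axl*, *Slc38a4* and *Mest* passed, and genes under about 1 CPM spread widely in both directions.

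*Grb10* and *Igf2* act on the insulin-like growth factor pathway, and 17 of 21 listed genes of that pathway passed the filter. Of these, 3 rose and 0 fell in edgeR's quasi-likelihood test, beside 0.903% and 0.379% of all genes. *Igf1*, the main postnatal growth factor of the pathway, had 434, 311 and 294 CPM in LRCs versus 75.0, 88.1 and 43.2 CPM in non-LRCs. It rose by a log2 fold change of 2.37 ± 0.22 (SE, edgeR adjusted p = 0.0176), with no overlap of the groups. *Igf1r*, its receptor, had means of 19.1 ± 7.61 and 22.6 ± 9.44 CPM (s.d., n = 3), and *Insr*, the insulin receptor, 7.33 ± 3.23 and 4.84 ± 2.03 CPM. Neither passed the test, with edgeR adjusted p of 0.739 and 0.474. The other genes that rose, named after their values were seen, were *Igfbp4*, which binds IGFs, and *Pappa2*, a protease of IGF binding proteins. Their log2 fold changes were 2.51 and 3.55. The call of *Igfbp4* was lost without experiment 1, with an edgeR adjusted p of 0.0697. Without the replicate block the calls of *Igf1*, *Igfbp4* and *Pappa2* were lost, as were those of *Axl* and *Slc38a4*, with edgeR adjusted p between 0.0643 and 0.299. Of 18 genes for DNA methylation and chromatin at imprinted loci, 17 passed the filter and 0 were called by edgeR, with 3 higher and 0 lower at an unadjusted p below 0.05, beside 8.89% and 9.53% of all genes, and a median log2 fold change of 0.09.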

How the data were processed

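RNA of sorted growth plate cells was measured in 6 libraries, grouped by the cell type in the sample labels and paired by experiment number. According to the study's methods, CD45-negative cells were sorted and cDNA was amplified and read as single-end sequence. The authors aligned reads to mm10 (GRCm38) with TopHat2 2.0.13 and Bowtie2 2.2.1 (versions from the submitters' processing notes), and deposited raw counts of non-ambiguous reads per gene from HTSeq. The annotation and strand setting are not given in the sources used here. Deposited tables of size-factor normalized and rlog values were not used.

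Counts were filtered with filterByExpr (minimum count 10, minimum total 15), scaled by TMM and fitted with edgeR 4.0.16 (R 4.3.3) with experiment as a block and prior count 0.125, and the quasi-likelihood test was adjusted over 13728 genes by Benjamini-Hochberg. The block follows the paired design in the study's methods. Deviations from group means correlated across genes between paired libraries with r = 0.197, 0.288 and 0.336. No library was a copy of another. Within-experiment differences used log2 CPM with a prior count of 2. Floors of 3 counts cover counting error only, since amplified reads are not independent molecules. Scripts were tested on simulated data.

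Genes named were the 9 members, every listed domain neighbour or other imprinted gene with an adjusted p below 0.05, *Igf2*, *Cdkn1c*, *Igf2r*, *Peg10*, *Rian*, *Usp29*, *Copg2*, *Snrpn*, *Gnas*, *Nnat*, *Igf1*, *Igf1r* and *Insr*, and the 5 genes most like the member of largest change with at least 10 counts in its higher group. Members and lists were chosen with earlier results of these data known. Alternatives were DESeq2 1.42.0, limma-voom (limma 3.58.1), DESeq2 size factors, other filters, thinning to 18943789 counts, a prior count of 2, no block, and each experiment left out. Coordinates are from GENCODE vM21 on GRCm38, and start site windows and microRNAs from RefSeq on GRCm38.p6.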

Additional observations from a re-analysis of the deposited data

How the results depend on the processing

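Of the 9 genes, the count called (1 in the text) was 2 with no filter on low counts, 3 with at least 10 counts in every library, 5 with DESeq2, 6 with limma-voom, 0 without the replicate block and 0 to 4 with 1 experiment left out. Those higher in LRCs (0) were 1, 1, 3 and 3 in the first 4 of these settings and 0 to 2 with 1 experiment left out. Those lower (1) were 2 with at least 10 counts, 2 with DESeq2, 3 with limma-voom, 0 without the block and 0 to 2 with 1 experiment left out. Domain neighbours and other imprinted genes higher (1) were 2 with DESeq2 size factors, 2 with no filter, 3 with at least 10 counts, 6 with DESeq2, 6 with limma-voom, 0 without the block and 2 to 4 with 1 experiment left out, and those lower (1) were 6 with DESeq2, 4 with limma-voom, 0 without the block and 0 to 2. Over all genes, those higher (124) were 421 with at least 10 counts, 847 with DESeq2, 717 with limma-voom, 1 without the block and 27 to 476 with 1 experiment left out, and those lower (52) were 90 with no filter, 330 with at least 10 counts, 845 with DESeq2, 644 with limma-voom, 0 without the block and 8 to 306. The cause of these differences was not tested.

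Of the log2 fold changes of 25 named genes under these settings, 229 kept their direction and side of the threshold, 20 passed it in addition, 9 no longer passed it and 11 changed sign. The signs that changed were those of *Peg3* (0.015 without the block, -0.414 to 0.063 with 1 experiment left out), *Rian* (-0.07 with limma-voom, -0.12 to 1.11 with 1 experiment left out), *Copg2* (0.326 without the block, -0.678 to 0.538) and, with 1 experiment left out, *Usp29* (-0.029 to 2.24), *Nnat* (-1.17 to 1.402) and *Igf1r* (-0.389 to 0.102). DESeq2 size factors moved the median of all log2 fold changes by 0.01.

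With 3 pairs the precision is that of 3 experiments, and experiment 2 had the shallowest LRC library. *Dlk1* had 12 to 25 counts in 3 libraries, which limits the precision of its fold change.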
